A study of Mus musculus with 10 samples.

Results

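The mitochondrial genome of the mouse encodes the 13 proteins examined here, and their messenger RNAs were measured in renin cells, the cells of the kidney that make and release renin. Members were the rows of the deposited gene table whose symbol begins with mt-, which were 13 of 32648 genes. All 13 were messenger RNAs, and all 13 passed the filter on low counts. The transfer RNAs and ribosomal RNAs of the organelle, 24 of the 37 mitochondrial genes annotated in GENCODE vM21, were not analysed here. Gm29216 and 10 other nuclear pseudogenes that are near-identical to parts of these genes were followed beside them.

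Cells came from the kidney cortex of C57BL/6 mice with the Ren1c-YFP reporter, in which regulatory sequence of the renin gene drives a yellow fluorescent protein. The mice were 8 to 12 weeks old and were studied 72 h after surgery. Coarctation, a surgical narrowing of the aorta at a level between the right and the left renal artery, was made in 3 mice. In 2 sham mice the operation left the aorta unexposed and unconstricted. Living cells that were fluorescent were sorted, 1000 from each kidney, so that each library is a pool of cells of a single kidney. The 10 libraries form 4 groups, coarctation left (n = 3), coarctation right (n = 3), sham left (n = 2) and sham right (n = 2). All 4 groups carry the reporter, and no group is without surgery. Below, values of a group are listed in the order of its mice, 1, 2 and 3 or 1 and 2, and the same number in the left and right groups of one treatment is the same animal.

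Mitochondrial messenger RNAs are transcribed inside the organelle as long precursors from both strands of a small circular genome, and are cut into single messages at the transfer RNAs that lie between most of them. They encode core, membrane-embedded subunits of the respiratory chain and of ATP synthase, while the other subunits of the same complexes are made from nuclear genes. Their level in a cell depends on the number of genome copies, on transcription and on the stability of each message. In the kidney the cells richest in mitochondria are those of the tubules, whose transport work is fuelled by respiration.

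The libraries held 20029817 to 32006229 estimated counts each. The libraries of sham mouse 1 stood apart from the rest, with 12804 (left) and 13063 (right) genes at 1 TPM or more, against 11035 to 11914 in the other 8. Ren1 was found in every library, at 5451 to 48620 TPM, and the reporter EYFP at 60.6 to 979 TPM. Markers of other kidney cells were present as well. Each mouse counts as a biological replicate in the design the labels give. The p-values measure the spread between these 10 libraries, and the main fit treats the left and right kidneys of a mouse as separate samples.

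The nuclear copies bear on every level below, because reads from an identical stretch could have been listed under either gene, and how they were divided is not given in the sources used here. A search of all GENCODE vM21 transcripts found 11 copies with at least 95% identity over at least 90% of the copy, and 7 of them lie side by side on the minus strand of chromosome 1 (GRCm38, chr1:24611535-24616197). The first bases of Gm29216 are shown beside the matching stretch of mt-Co1 (chrM:6381-6440), with capitals at the bases that differ, because this copy was among the most abundant rows of the table. The copy is 492 bases long, and all 6 of its differing bases lie between its positions 3 and 13, so that the rest of it equals the end of mt-Co1.
mt-Co1: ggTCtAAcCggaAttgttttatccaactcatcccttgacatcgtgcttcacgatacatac
Gm29216: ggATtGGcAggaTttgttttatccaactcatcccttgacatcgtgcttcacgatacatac
The first bases of Gm28438 (chr1:24612775-24613119) and of mt-Nd3 are shown because most counts of this pair stood under the copy, with the single differing base in capitals. It is T3C, counted from the first base of mt-Nd3.
mt-Nd3: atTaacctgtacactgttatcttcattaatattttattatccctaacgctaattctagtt
Gm28438: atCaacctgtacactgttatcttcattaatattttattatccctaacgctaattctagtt
Gm10925 (chr1:24613974-24614651) equals the first 678 bases of mt-Atp6 without a difference. The first 60 bases of both are given once, with the start codon in capitals.
mt-Atp6: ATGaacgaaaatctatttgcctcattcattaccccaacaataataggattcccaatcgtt
Sharing also occurs inside the mitochondrial genome. The last 43 bases of mt-Atp8 are the first of mt-Atp6 (chrM:7927-7969), and the capitals mark the start codon of mt-Atp6 and the stop codon of mt-Atp8.
mt-Atp8 and mt-Atp6: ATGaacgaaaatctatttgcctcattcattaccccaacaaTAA
The end of mt-Nd4l and the start of mt-Nd4 share 7 bases, in capitals (chrM:10144-10196 is shown). mt-Nd5 and mt-Nd6 overlap by 14 bases on opposite strands, and whether counting used strand is not given in the sources used here.
mt-Nd4l and mt-Nd4: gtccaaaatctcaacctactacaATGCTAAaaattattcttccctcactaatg

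Together the 13 messenger RNAs made up 3.51% to 8.45% of the TPM of a library. TPM, the transcript abundance in the deposited table, divides by transcript length and has the same sum in each library. In coarctation mice the left kidneys held 7.97%, 4.38% and 6.42% and the right kidneys 8.45%, 5.39% and 6.21%. In sham mice it was 7.78% and 4.75% on the left and 6.08% and 3.51% on the right. Mouse 1 of each treatment was the highest and mouse 2 the lowest on either side, so the groups overlapped throughout. Group means were 6.26% ± 1.80 (SD, n = 3) and 6.68% ± 1.59 (SD, n = 3) for coarctation left and right, and 6.27% ± 2.14 (SD, n = 2) and 4.80% ± 1.82 (SD, n = 2) for sham left and right. A sum over members was given no test. In pooled cells, fewer cells that hold a message and less RNA per cell cannot be told apart.

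Within a mouse, the right kidney held 1.06, 1.23 and 0.967 times the share of the left in coarctation mice 1, 2 and 3, and 0.782 and 0.739 times in sham mice 1 and 2. The right kidney was thus the lower one in both sham mice, while the coarctation mice lay on either side of equality. As a share of estimated counts the 13 genes ranged from 4.46% (95% Wilson interval 4.45% to 4.46%) in the right kidney of sham mouse 2 to 12.2% (12.19% to 12.22%) in the right kidney of coarctation mouse 1. These intervals treat each estimated count as an independent read. The counts were derived from TPM and the reads carry no molecular identifiers, so the intervals may understate even the counting error. They leave out the spread between mice. With the 11 copies added, the range was 5.60% to 15.2% of counts, and the same 2 libraries were its ends.

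**Figure D1:**
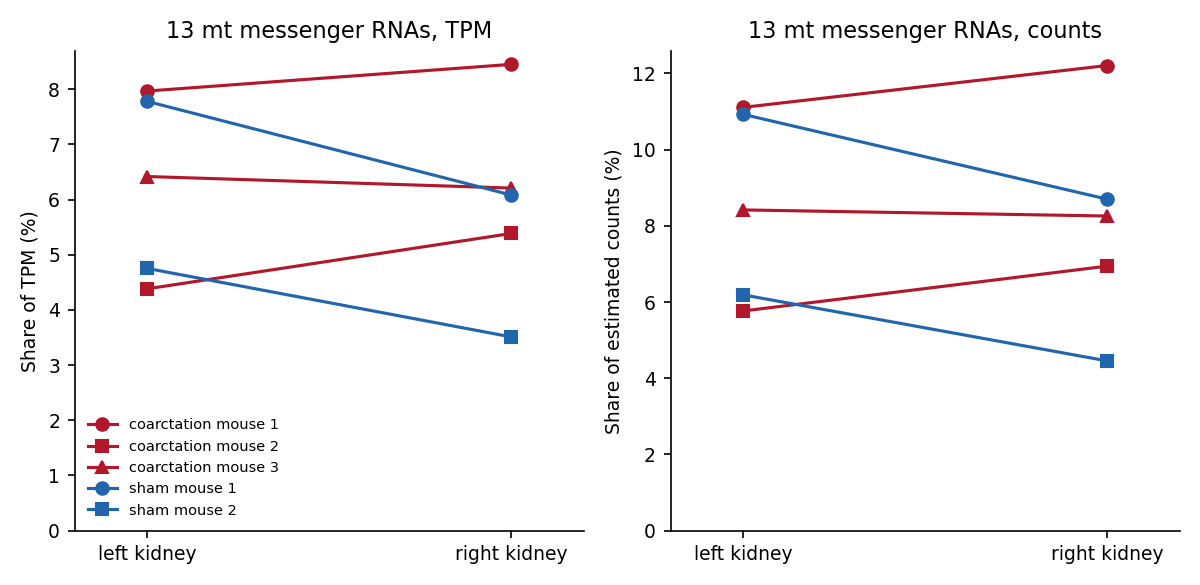
Share of the 13 mitochondrial messenger RNAs in the left and right kidney of each mouse, as a percentage of TPM (left panel) and of estimated counts (right panel), with a line for each mouse, red for coarctation and blue for sham. Both sham lines run downward to the right kidney, from 7.78% to 6.08% and from 4.75% to 3.51% of TPM, and the coarctation lines run in both directions.

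Markers of other cells varied among the same libraries. The summed level of 15 proximal tubule markers ranged from 1717 to 11272 TPM in coarctation left, 2539 to 5466 TPM in coarctation right, 1241 to 6093 TPM in sham left and 1459 to 4552 TPM in sham right. All 15 averaged at least 1 TPM, and none was at 0 in any library. The 3 renin cell markers summed to 32948 to 55760 TPM in coarctation left, 6757 to 15562 TPM in coarctation right, 33584 to 52865 TPM in sham left and 24198 to 59349 TPM in sham right, so that coarctation right lay below each of the other groups. The 12 markers of the thick ascending limb, distal tubule and collecting duct summed to 92.9 to 283 TPM in coarctation left, 194 to 1024 TPM in coarctation right, 236 to 442 TPM in sham left and 117 to 308 TPM in sham right. Erythroid markers (5) summed to 2086 to 4735 TPM in coarctation left, 152 to 15981 TPM in coarctation right, 1238 to 2296 TPM in sham left and 921 to 4343 TPM in sham right, and leukocyte markers (11, of which Cd68, S100a8 and S100a9 were at 0 in some library) to 70.6 to 473 TPM in coarctation left, 296 to 944 TPM in coarctation right, 127 to 439 TPM in sham left and 125 to 337 TPM in sham right. The 5 podocyte markers, of which 3 averaged above 1 TPM, summed to between 17.9 and 44.7 TPM. The 6 endothelial markers, of which 3 averaged above 1 TPM, summed to between 59.7 and 106 TPM. The right kidney of coarctation mouse 1, which had the highest mitochondrial share, had the highest distal and leukocyte sums and the lowest erythroid sum. The library with the highest proximal tubule sum, the left kidney of coarctation mouse 3, was number 4 of 10 in mitochondrial share. The 3 libraries with the most Ren1, at 48620, 48591 and 43896 TPM (coarctation left 2, sham right 2 and sham left 2), were the 3 with the lowest mitochondrial share. The library with the least Ren1, coarctation right 1 at 5451 TPM, had the highest share. Other libraries did not follow this order. Coarctation right 2 was number 8 of 10 in Ren1, at 11982 TPM, and number 7 in share. Coarctation left 3 was number 4 in both. The part of Ren1 and of other cells in the mitochondrial levels was not tested.

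Levels differed widely among the members. mt-Co3 had the highest mean over the 10 libraries, 20862 TPM, and was first among the 13 in every one of them. mt-Co2 (9961 TPM), mt-Cytb (8107 TPM) and mt-Co1 (7274 TPM) followed, and these neighbours changed places, since mt-Co2 exceeded mt-Cytb in 8 of 10 libraries and mt-Cytb exceeded mt-Co1 in 6 of 10. mt-Nd1 (3966 TPM) held rank 5 among the 13 in each library. mt-Atp8 (3117 TPM) and mt-Nd4 (2745 TPM) came next, with mt-Atp8 above in 7 of 10. mt-Atp6 (1323 TPM), mt-Nd6 (1132 TPM), mt-Nd2 (1038 TPM) and mt-Nd5 (906 TPM) lay close together, and mt-Atp6 exceeded mt-Nd6 in 5 of 10 libraries only. mt-Nd4l (428 TPM) and mt-Nd3 (77.6 TPM) held ranks 12 and 13 in all 10. Of all genes in the table, mt-Co3 held rank 2 to 5 per library, and mt-Nd3 rank 792 to 2183.

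TPM of the shortest genes rests on the lengths in the deposited table. The table gives mt-Atp8 a length of 33.0 to 34.0 bases against 204 annotated, mt-Nd4l 124 to 147 against 297, and mt-Nd3 158 to 211 against 348. A small length raises TPM for the same number of reads. By estimated counts mt-Atp8 averaged 3680 and mt-Nd4 147029 per library, an order of size that TPM does not show.

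**Figure D2:**
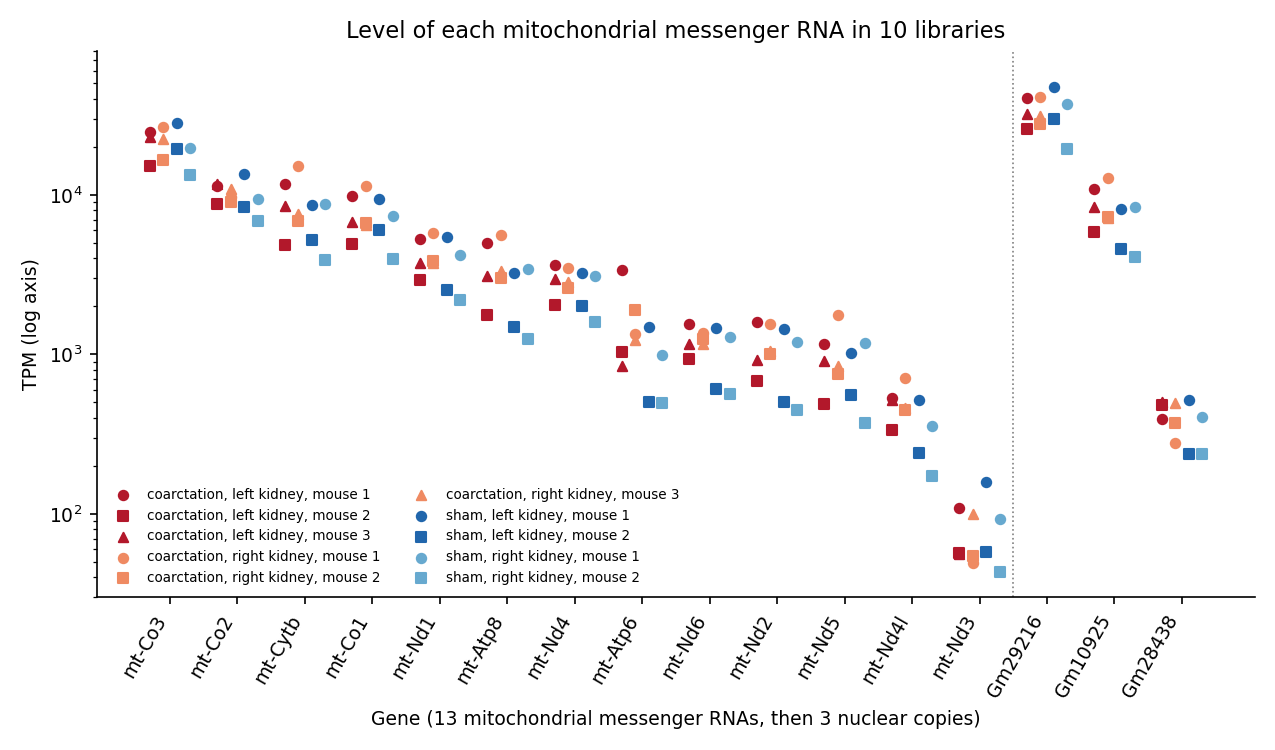
TPM of the 13 mitochondrial messenger RNAs, ordered by their mean, and of 3 nuclear copies (right of the dotted line), on a log axis, with a point for each library, coloured by group with a marker shape for the mouse number. mt-Co3 is the highest of the 13 in every library, and the copy Gm29216, at 19294 to 47157 TPM, lies above it in all 10.

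Complex IV, cytochrome c oxidase, passes electrons to oxygen, and its 3 mitochondrial subunits include the 2 highest members by TPM, mt-Co3 and mt-Co2. mt-Co1 (chrM:5328-6872) encodes the subunit with the site of oxygen reduction. The level of mt-Co1 in coarctation mice was 9795, 4949 and 6784 TPM on the left and 11372, 6662 and 6491 TPM on the right. The sham mice held 9413 and 6010 TPM on the left and 7325 and 3937 TPM on the right. Mouse 1 was the highest in each of the 4 groups, and the groups overlapped. The copy Gm29216 was at 40654, 25684 and 32173 TPM in coarctation left and 40936, 27608 and 31268 TPM in coarctation right. It was at 47157 and 29764 TPM in sham left and 37117 and 19294 TPM in sham right. It held the first or second place among all genes of the table in every library and had the same highest and lowest sham library as mt-Co1. Since 483 of its 492 bases align to the end of mt-Co1 with a single mismatch, the table cannot separate it from that gene by sequence.

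mt-Co2 (chrM:7013-7696) encodes the subunit that takes electrons from cytochrome c. In coarctation mice, mt-Co2 was at 11406, 8735 and 11705 TPM on the left and at 9661, 9054 and 10951 TPM on the right. In sham mice it was at 13497 and 8383 TPM on the left and at 9359 and 6859 TPM on the right. It had the smallest spread of the 13, with a highest level 1.97 times the lowest. mt-Co3 (chrM:8607-9390) encodes the remaining mitochondrial subunit. mt-Co3 measured 24592, 15076 and 22973 TPM in the left kidneys of coarctation mice and 26638, 16408 and 22307 TPM in their right kidneys. Sham kidneys measured 28257 and 19435 TPM (left) and 19605 and 13325 TPM (right). For both genes the right kidney was lower than the left in each sham mouse, and the 4 groups overlapped on this scale.

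Complex I, the entry point for electrons from NADH, has 7 mitochondrial subunits, of which mt-Nd1, mt-Nd4 and mt-Nd5 had the most estimated counts. mt-Nd1 (chrM:2751-3707) is the first messenger RNA after the ribosomal genes. In coarctation mice, mt-Nd1 was at 5287, 2929 and 3723 TPM on the left and at 5793, 3831 and 3750 TPM on the right. In sham mice it was at 5465 and 2529 TPM on the left and at 4172 and 2178 TPM on the right. Its right kidney exceeded its left in all 3 coarctation mice on this scale, with 3723 against 3750 TPM in mouse 3, and was below it in both sham mice. mt-Nd2 (chrM:3914-4951) ranged over 3.54-fold. The level of mt-Nd2 in coarctation mice was 1588, 682 and 924 TPM on the left and 1544, 1004 and 1051 TPM on the right. The sham mice held 1431 and 504 TPM on the left and 1202 and 449 TPM on the right. Its lowest libraries were both kidneys of sham mouse 2, while sham mouse 1 lay within the range of the coarctation mice.

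mt-Nd3 (chrM:9459-9806) was the least abundant member. mt-Nd3 measured 109, 56.4 and 55.9 TPM in the left kidneys of coarctation mice and 49.4, 54.2 and 99.3 TPM in their right kidneys. Sham kidneys measured 158 and 57.6 TPM (left) and 92.5 and 42.9 TPM (right). The highest and the lowest value were both in sham kidneys. mt-Nd4l (chrM:9877-10173) and mt-Nd4 (chrM:10167-11544) are carried on a joint message. In coarctation mice, mt-Nd4l was at 532, 333 and 517 TPM on the left and at 712, 449 and 459 TPM on the right. In sham mice it was at 514 and 239.8 TPM on the left and at 353 and 173 TPM on the right. In right kidneys every coarctation library lay above every sham library, as for 5.41% of all genes, while left kidneys overlapped. The level of mt-Nd4 in coarctation mice was 3613, 2032 and 2976 TPM on the left and 3473, 2587 and 2821 TPM on the right. The sham mice held 3245 and 2002 TPM on the left and 3116 and 1586 TPM on the right. For mt-Nd4 the right kidney of sham mouse 1 lay within the coarctation range, so its groups overlapped on both sides.

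mt-Nd5 (chrM:11742-13565) encodes the largest of the 13 proteins. mt-Nd5 measured 1168, 490.2 and 912 TPM in the left kidneys of coarctation mice and 1764, 754 and 847 TPM in their right kidneys. Sham kidneys measured 1024 and 555 TPM (left) and 1173 and 374 TPM (right). It was higher in the right than in the left kidney of sham mouse 1 and lower in that of sham mouse 2. mt-Nd6 (chrM:13552-14070) is the only one of the 13 on the minus strand. In coarctation mice, mt-Nd6 was at 1551, 932 and 1159 TPM on the left and at 1351, 1242 and 1163 TPM on the right. In sham mice it was at 1459 and 606 TPM on the left and at 1286 and 568 TPM on the right. It varied 2.73-fold, within the range of the genes on the other strand, and both kidneys of sham mouse 2 were its lowest libraries.

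Complex III passes electrons from ubiquinol to cytochrome c, and mt-Cytb (chrM:14145-15288), which encodes cytochrome b, is its single mitochondrial subunit. The level of mt-Cytb in coarctation mice was 11630, 4833 and 8523 TPM on the left and 15202, 6883 and 7580 TPM on the right. The sham mice held 8581 and 5218 TPM on the left and 8732 and 3890 TPM on the right. The right kidney of coarctation mouse 1 stood above all other libraries. In complex V, the ATP synthase, mt-Atp6 (chrM:7927-8607) encodes the subunit of the proton channel and mt-Atp8 (chrM:7766-7969) a small subunit of the same membrane part. In coarctation mice, mt-Atp6 was at 3397, 1027 and 850.2 TPM on the left and at 1342, 1905 and 1230 TPM on the right. In sham mice it was at 1489 and 503 TPM on the left and at 993 and 492 TPM on the right. mt-Atp6 varied 6.91-fold over the libraries, the widest range of the 13. In right kidneys its coarctation libraries all lay above its sham libraries on TPM, as for 5.41% of all genes. Relative to unscaled library totals, joint counts of mt-Atp6 and its copy Gm10925 did overlap, as given below. mt-Atp8 measured 5000, 1758 and 3075 TPM in the left kidneys of coarctation mice and 5597, 3019 and 3336 TPM in their right kidneys. Sham kidneys measured 3251 and 1476 TPM (left) and 3417 and 1239 TPM (right). mt-Atp8 varied 4.52-fold and overlapped between all groups.

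The right kidney was compared with the left within each mouse on log2 CPM, the counts relative to TMM-scaled library sizes with a prior count of 2. The deposited counts were derived from TPM, so log2 CPM and TPM differ here mainly in how libraries are scaled. In sham mice 12 of the 13 members were lower on the right in both animals, with mt-Nd5 as the exception, and 24.3% of all tested genes met that rule. In complex IV, right minus left was -0.61 and -0.54 for mt-Co3 in mice 1 and 2. It was -0.45 and -0.61 for mt-Co1 and -0.43 and -0.62 for Gm29216. On TPM the count was 10 of 13 (22.3% of all genes), since mt-Atp8 and mt-Cytb changed direction in sham mouse 1.

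In coarctation mice no such common direction was seen. Of the 13, 7 were higher on the right in mouse 1, 10 in mouse 2 and 2 in mouse 3, and on TPM 7, 12 and 6. Only mt-Co2 was lower on the right in all 3 mice, with differences of -0.33, -0.10 and -0.33 (13.5% of all genes met this rule), and on TPM none of the 13 was (8.15% of all genes). None was higher on the right in all 3 mice on log2 CPM (14.5% of all genes). On TPM 2 were, mt-Nd1 and mt-Atp8 (20.8% of all genes). The pattern of higher on the right in every coarctation mouse and lower in every sham mouse was met by 0 of 13 on log2 CPM (3.21% of all genes) and by mt-Nd1 alone on TPM (4.11% of all genes). Gm29216 was lower on the right in all 3 coarctation mice on log2 CPM (13.5% of all genes), with differences of -0.08, -0.05 and -0.27. On log2(TPM + 1) they were 0.01, 0.10 and -0.04, so the right kidney was the higher in mice 1 and 2.

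**Figure D3:**
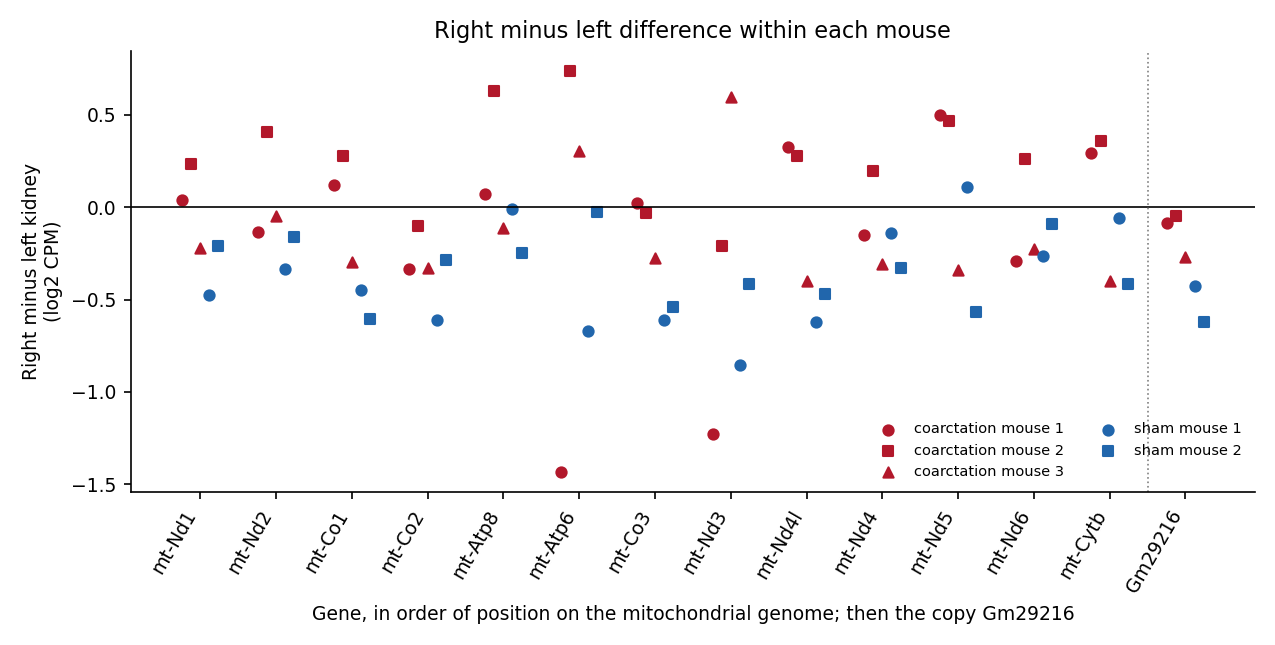
Right minus left kidney on log2 CPM for each member, in order of position on the mitochondrial genome, and for the copy Gm29216, with a point for each mouse, red for coarctation and blue for sham, and a line at 0 for equal kidneys. The blue points lie below 0 for 12 of 13 members, and the red points of mt-Atp6 and mt-Nd3 span the widest range, down to -1.43 and -1.23 in mouse 1.

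Differences between mice were wider than those between the kidneys of a mouse. Each mouse's mean of both kidneys was compared with the differences between its kidneys. For 12 of the 13 members the range of the 5 mouse means exceeded the largest side difference of any mouse, against 48.0% of all tested genes. mt-Nd3 was the exception. Over the members the median range of mouse means was 1.58 on the log2 scale, close to the 1.53 of all tested genes, while the median side difference was 0.29 against 0.62. Coarctation mouse 1 had the highest mean for 12 members, with mt-Nd3 as the exception, and sham mouse 2 the lowest for 12, with mt-Co3 as the exception.

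The fitted comparison of right with left kidneys in coarctation mice asks whether the sides of the constriction differ. The median log2 change of the 13 was 0.00 beside 0.02 for all tested genes, with 7 members higher and 6 lower in the right kidney. Changes ran from -0.47 (SE 0.53) for mt-Atp6 to 0.25 (SE 0.50) for mt-Nd5, both less than their standard errors, and that of mt-Co2 was -0.27 (SE 0.27). None of the 13 passed edgeR's quasi-likelihood test at an adjusted p of 0.05, as none of the 18825 genes did (0%), and none of the 13 had an unadjusted p under 0.05 (871 of all genes did). DESeq2 called 76 genes, none of them a member. A block for mouse in the edgeR fit gave 5 called genes, again without a member. In that fit mt-Co2 had a log2 change of -0.25 (SE 0.0872). It was the only member with an unadjusted p under 0.05 in this comparison, beside 1117 of 18825 genes. In the same comparison the renin cell markers were 3 of 3 lower (median -2.20) and the distal tubule and collecting duct markers 9 of 12 higher (median 1.44). The podocyte markers were 5 of 5 lower (median -1.58) and the erythroid markers 5 of 5 higher (median 0.58). Proximal tubule markers were 14 of 15 lower (median -0.44). Leukocyte markers were 8 of 11 higher (median 0.29), and 5 of the 11 had an unadjusted p under 0.05 in edgeR, in both directions. Cd74 (2.16), H2-Aa (2.80) and H2-Ab1 (2.59) were higher. S100a8 (-7.31) and S100a9 (-9.71), each at 0 in some library, were lower. None of these markers was called, and their part in the result was not tested. Direction depended on single libraries, since the median was 0.46 without the left kidney of mouse 1 and -0.24 without its right kidney.

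In sham mice, where neither kidney lies beyond a constriction, the median of the 13 was -0.38 beside 0.02 for all genes, and all 13 fitted changes were below 0. Complex IV had -0.58 (SE 0.40) for mt-Co3, -0.51 (SE 0.47) for mt-Co1 and -0.47 (SE 0.33) for mt-Co2. The smallest change was -0.09 (SE 0.61), of mt-Atp8, and Gm29216 had -0.50 (SE 0.41). No member passed (0 of 13, and 0% of all genes), none had an unadjusted p under 0.05 against 366 of all genes, and DESeq2 called 28 genes and no member. With mouse as a block the standard errors were smaller, that of mt-Co3 being 0.0831. In that fit 4 members had an unadjusted p under 0.05 (mt-Co1, mt-Co2, mt-Co3 and mt-Nd1), as had 566 of 18825 genes, but none passed. Erythroid markers were 5 of 5 higher (median 0.74) and distal tubule and collecting duct markers 8 of 12 lower (median -0.63) in the same comparison. Proximal tubule markers were 11 of 15 lower (median -0.22) and leukocyte markers 7 of 11 lower (median -0.21). None was called, and their part was not tested. Without both kidneys of sham mouse 1 the median was -0.33. The median was 0.11 without the left kidney of mouse 1, -0.09 without the right kidney of mouse 2 and -0.82 without the right kidney of mouse 1.

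Coarctation was compared with sham on each side. In left kidneys 12 of the 13 members had a higher fitted level in coarctation, with a median of 0.44 beside -0.02 for all genes. The members of complex V had the largest changes, 1.17 (SE 0.61) for mt-Atp6 and 0.81 (SE 0.57) for mt-Atp8, and mt-Nd3 had the only negative one, -0.23 (SE 0.57). None passed (0 of 13, 0% of all genes), none had an unadjusted p under 0.05 (894 of all genes did), and DESeq2 called 39 genes and no member. No member had all coarctation libraries above all sham libraries on log2 CPM (9.73% of all genes) or on TPM (4.87% of all genes). Proximal tubule markers were 14 of 15 higher (median 0.48), erythroid markers 5 of 5 higher (median 1.30) and leukocyte markers 7 of 11 higher (median 1.41). Distal tubule and collecting duct markers were 10 of 12 lower (median -1.11). None was called, and their part was not tested. Without a filter on low counts, 3 members had an unadjusted p under 0.05, as had 1706 of 31370 genes, and no member passed. The median was 0.06 without the left kidney of coarctation mouse 1, 0.12 without that of sham mouse 2 and 0.88 without that of sham mouse 1.

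In right kidneys all 13 fitted changes were above 0 in coarctation, with a median of 0.75 beside -0.05 for all genes. The largest was that of mt-Nd4l, 1.25 (SE 0.47), with an unadjusted p of 0.0204 and an adjusted p of 0.995 in edgeR's quasi-likelihood test. mt-Atp6 had 1.17 (SE 0.61), mt-Atp8 1.01 (SE 0.58) and mt-Cytb 0.89 (SE 0.52), while mt-Nd3 had 0.17 (SE 0.58) and Gm29216 0.44 (SE 0.37). None of the 13 passed (0% of all genes did, with 720 at an unadjusted p under 0.05), and DESeq2 called 57 genes and no member. On log2 CPM 4 of the 13 had every coarctation library above both sham libraries (mt-Co2, mt-Atp6, mt-Nd4l and mt-Nd6), as had 7.2% of all genes. On TPM 2 of the 13 did, mt-Atp6 and mt-Nd4l (5.41% of all genes). For mt-Atp6 this did not hold for joint counts with its copy in CPM of the unscaled library totals. That scale leaves out the TMM factors, so it does not show whether the joint counts overlap on log2 CPM. Markers differed in the same comparison, with renin cell markers 3 of 3 lower (median -1.85), podocyte markers 5 of 5 lower (median -3.10) and erythroid markers 5 of 5 higher (median 1.33). Podocyte markers were low, with a sum of 17.9 to 23.9 TPM in coarctation right and 35.9 to 42.6 TPM in sham right. Of the leukocyte markers, 9 of 11 were higher (median 1.37), and of the proximal tubule markers 12 of 15 (median 0.39). None was called, and their part in the mitochondrial levels was not tested. Without a filter on low counts, 9 of the 13 members had an unadjusted p under 0.05, as had 1543 of 31370 genes. In the filtered fit 1 member had, and none passed in either fit. With library totals in place of TMM, 12 of 13 were above 0 in right kidneys (median 0.52 beside -0.18 for all genes) and 8 of 13 in left kidneys (median 0.12 beside -0.27). The median depended on single animals. It was 0.33 without coarctation mouse 1, 1.18 without sham mouse 1 and 0.42 without sham mouse 2.

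**Figure D4:**
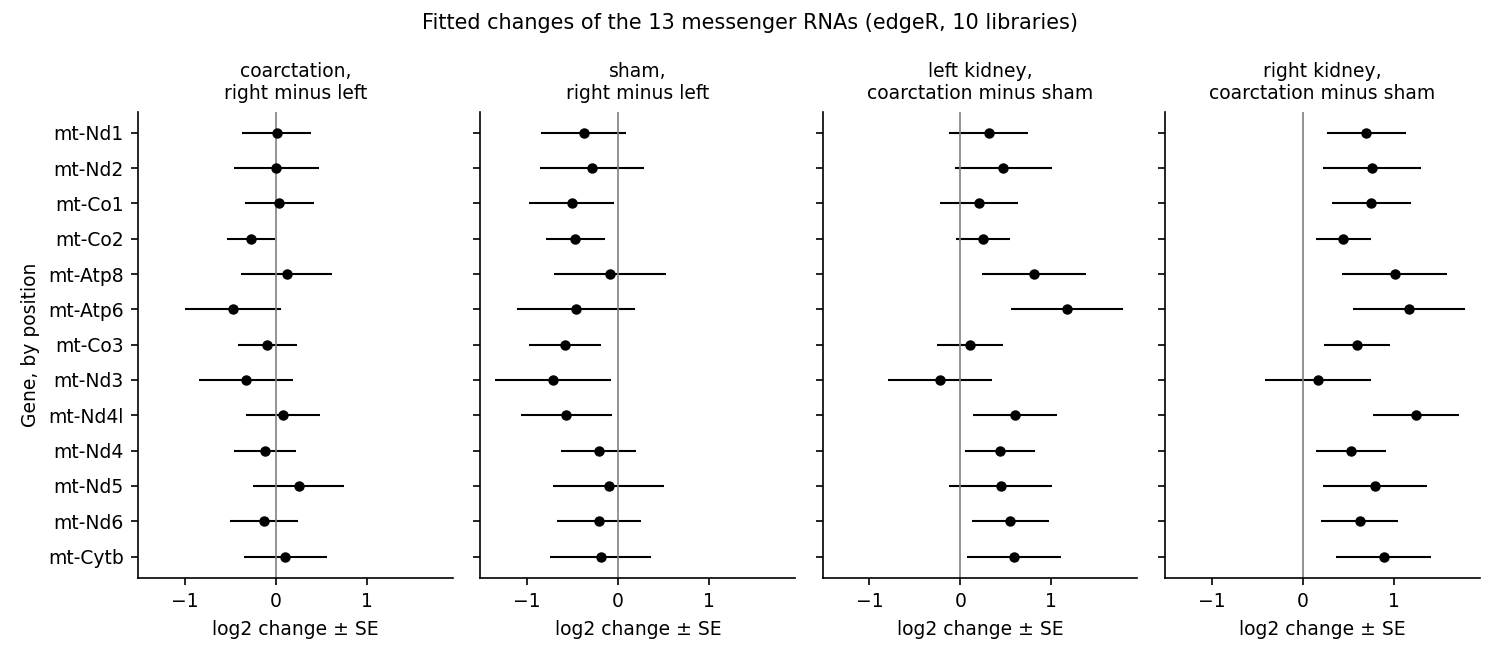
Fitted log2 changes of the 13 members in 4 comparisons, as points with bars of 1 standard error, from the edgeR model of all 10 libraries, with genes in order of position. The sham points all lie below 0, the right kidney points all lie above 0, and no change passed the test.

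The change between sides in coarctation minus that in sham tests whether the side difference itself depended on treatment. Its median over the members was 0.30 beside 0.02 for all genes, and 12 of 13 were above 0. The largest were 0.65 (SE 0.64) for mt-Nd4l, 0.55 (SE 0.60) for mt-Co1 and 0.49 (SE 0.51) for mt-Co3, and mt-Atp6 had -0.01 (SE 0.84). None passed (0 of 13, 0% of all genes, 575 of all genes at an unadjusted p under 0.05 and no member), and DESeq2 called 34 genes and no member. With mouse as a block, mt-Co1 and mt-Co3 had an unadjusted p under 0.05, as had 782 of 18825 genes, and none passed. The renin cell markers were 3 of 3 lower (median -2.11) and the distal tubule and collecting duct markers 9 of 12 higher (median 2.12). Proximal tubule markers were 10 of 15 lower (median -0.18) and leukocyte markers 6 of 11 higher (median 0.21). None was called, and their part was not tested. This comparison shares its libraries with those above and adds no further animals. Its median turned to -0.16 without the left kidney of sham mouse 1 and to -0.08 without the right kidney of sham mouse 2.

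The nuclear copies held 19.7% to 22.1% of the joint counts of members and copies. Gm29216 took 42.5%, 48.0% and 45.7% of the counts of mt-Co1 and its copies in coarctation left, 39.0%, 42.4% and 46.1% in coarctation right, 47.1% and 46.8% in sham left and 47.4% and 46.6% in sham right. The lowest share was in the right kidney of coarctation mouse 1, and the 4 sham libraries lay between 46.6% and 47.4%. Gm10925 took 75.6%, 84.6% and 90.5% of the counts of mt-Atp6 and its copy in coarctation left and 90.2%, 78.8% and 85.0% in coarctation right. In sham left its share was 84.2% and 89.9% and in sham right 89.1% and 89.0%, so that in every library most counts stood under the pseudogene. Gm28438 held 76.4% to 89.8% of the counts of mt-Nd3 and its copy. The other chromosome 1 copies held little although they match their gene without a difference, Gm28437 at most 0.477% of mt-Co3 and Gm28661 at most 0.307% of mt-Co2. Gm28439 (mt-Nd4) and Gm10222 (mt-Nd4l) were listed at 0 in all 10 libraries. Of the copies on other chromosomes, Gm13341 averaged 2.71 TPM, and Gm13340, Gm13339 and Gm4076 each averaged less than 1 TPM.

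**Figure D5:**
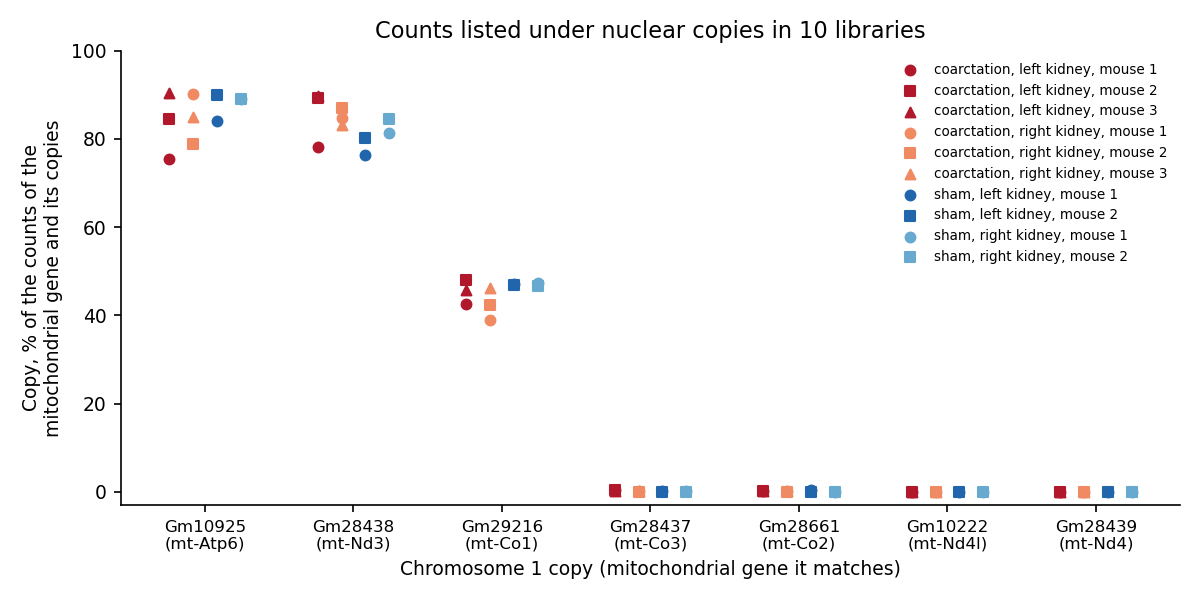
Counts of each chromosome 1 copy as a percentage of the counts of the mitochondrial gene it matches and that gene's copies, with a point for each of the 10 libraries, coloured by group and shaped by mouse number. Gm10925 and Gm28438 hold 75.6% to 90.5% and 76.4% to 89.8%, Gm29216 39.0% to 48.0%, and the other 4 copies are at or near 0.

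Adding each copy to its gene altered the members that share most with a copy. In CPM of the unscaled library totals, mt-Atp6 ranged 7.52-fold over the 10 libraries alone and 3.39-fold with Gm10925. On this scale its log2 ratio of right to left was -1.34, 0.84 and 0.57 in coarctation mice 1 to 3 for the gene alone, and -0.02, 0.38 and -0.09 for gene and copy together. The low value of mouse 1, the largest side difference of any member in any mouse, was thus not present in the joint count. In right kidneys the joint CPM was 12173, 7428 and 7127 in coarctation mice. It was 8217 and 3649 in sham mice, so the right kidneys overlapped between treatments on this scale. The scale leaves out the TMM factors, which were 0.897, 1.08 and 1.03 in coarctation right and 1.24 and 0.969 in sham right. The overlap is thus not shown for TMM-scaled CPM. For mt-Nd3 the ratio was -1.15, -0.11 and 0.87 alone and -0.63, -0.38 and 0.13 with its copy. For mt-Co1 it was 0.21, 0.38 and -0.03 alone and 0.13, 0.23 and -0.02 with its copies, a smaller shift. In the edgeR fit with copies added, the change of mt-Atp6 between coarctation and sham was 0.77 in left and 0.81 in right kidneys, against 1.17 in both for the gene alone. mt-Nd3 in left kidneys went from -0.23 to 0.41, and all 13 members were then above 0 on that side. No member passed in that fit.

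As a share of the 13, 11 members varied less over the libraries than the summed share did (2.41-fold), and mt-Atp6 and mt-Nd3 varied more. mt-Nd4 made up 4.11% to 5.12% of their TPM, mt-Co1 10.5% to 13.5%, mt-Nd1 5.32% to 7.11% and mt-Co3 30.5% to 40.9%. mt-Cytb was at 18.0% in the right kidney of coarctation mouse 1 and at 14.6% or less elsewhere. The least even were mt-Atp6 (1.06% to 4.26%) and mt-Nd3 (0.0585% to 0.204%), which are the members that share the most counts with a copy. The ratio of mt-Atp8 to mt-Atp6, which lie on a joint message, ran from 1.47 to 4.17, and from 0.257 to 0.397 with Gm10925 added to mt-Atp6. That of mt-Nd4l to mt-Nd4 ran from 0.109 to 0.205, and that of mt-Nd6 to its opposite-strand neighbour mt-Nd5 from 0.766 to 1.90.

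As TPM sums, the nuclear subunits of the same complexes varied less. The TPM sum of the mitochondrial subunits had a highest library 2.73 times the lowest for complex I, 3.91 for complex III, 2.12 for complex IV and 4.85 for complex V. For the nuclear subunits the same ratios were 1.43, 1.43, 1.38 and 1.45. These are unlike sums, of 7, 1, 3 and 2 mitochondrial genes against 36, 9, 10 and 15 nuclear ones. The mitochondrial sums also leave out the nuclear copies, among them Gm10925, which held most counts of its pair with mt-Atp6. The part of these differences in the ratios was not tested. The nuclear sum was highest and lowest in the same libraries as the mitochondrial share, the right kidneys of coarctation mouse 1 and sham mouse 2, at 151054 and 108050 TPM. Of 70 nuclear subunits of complexes I, III, IV and V tested, 23 were higher and 47 lower in coarctation right kidneys than in left (median -0.10), and 14 were higher and 56 lower in sham right kidneys (median -0.09). Against sham, 64 of 70 were higher in coarctation left kidneys (median 0.22) and 62 of 70 in right kidneys (median 0.23). None of the 70 passed edgeR's test in any of the 5 comparisons, and none had an unadjusted p under 0.05. Examples had log2 changes in coarctation of Uqcrh -0.33, Ndufa13 -0.33 and Ndufa11 -0.29, and in sham of Ndufc2 -0.37 and Uqcrb -0.38. Uqcrh and Uqcrb are small subunits of complex III.

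Nuclear genes that make and handle mitochondrial RNA were read from lists. Genes are named from each list by their small unadjusted p in the comparison given, so their changes add no test of the list. Of genes for transcription and replication of the mitochondrial genome, 13 of 21 were higher in right than in left kidneys of coarctation mice (median 0.05) and 10 of 21 in sham mice (median -0.02). Their examples in coarctation were Primpol -1.27, Tfb1m 1.04, Polg 0.69 and Rnaseh1 -0.84 on the log2 scale, where Polg is the catalytic subunit of the mitochondrial DNA polymerase and Tfb1m a methyltransferase of mitochondrial ribosomal RNA. In sham they were Mterf2 1.08 and Primpol -2.29, with Primpol at a mean of 3.16 TPM in sham left and 0.712 TPM in sham right. Of genes for processing and stability of mitochondrial RNA, 12 of 25 were higher in right than in left kidneys of coarctation mice (median 0.00) and 12 of 25 in sham mice (median -0.03). Lrpprc, which binds and stabilises mitochondrial messenger RNAs, had a log2 change of -0.69 in coarctation (SE 0.35, unadjusted p = 0.0665, adjusted p = 1 in edgeR). It was lower in the right kidney of all 3 coarctation mice, as were 13.5% of all genes. The others were 1110008L16Rik 1.37, Fastkd5 -1.55 and Angel2 0.49 in coarctation, and Fastk -1.37 and Trit1 1.38 in sham. Fastkd5 was low, at a mean of 1.77 TPM in coarctation left and 0.634 TPM in coarctation right. Fastk belongs to a family of mitochondrial RNA-binding proteins. Of genes read as a measure of mitochondrial mass, 12 of 20 were higher in right than in left kidneys of coarctation mice (median 0.08) and 14 of 20 in sham mice (median 0.05). Here the examples were Immt 0.35, Mdh2 0.21, Hspa9 0.22 and Slc25a4 0.32 in coarctation and Timm44 -0.57 and Vdac2 0.32 in sham, Immt being a structural protein of the inner membrane folds and Vdac2 a channel of the outer membrane. No gene of these lists passed edgeR's test in any of the 5 comparisons.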

How the data were processed

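RNA was measured in 10 libraries of sorted renin cells, 1 library per kidney, made with SMART-Seq v4 per the labels' protocols. The authors deposited a table of 32648 genes with TPM, estimated counts and average transcript lengths for each library, as its column names give them. A further column marks the counts as lengthScaledTPM, so they were derived from TPM and transcript length. The submitters' processing notes name FastQC and the builds GRCm38 and mm10. For the aligner, the quantifier and the treatment of reads that match several genes, nothing was given in the sources used here.

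Estimated counts were rounded to whole numbers, and 18825 genes that passed edgeR's filterByExpr were tested. Library sizes were scaled by TMM (factors 0.842 to 1.24). The 4 groups were fitted together with edgeR 4.0.16 in R 4.3.3 (quasi-likelihood test, common dispersion 0.45, 6 residual degrees of freedom), with Benjamini-Hochberg adjustment over all tested genes and a threshold of 0.05. The 5 comparisons were right minus left in each treatment, the difference of these, and coarctation minus sham on each side. DESeq2 1.42.0 and limma 3.58.1 were alternatives, beside other scalings and filters, leaving out each library or mouse, mouse as a block, and copies added to their genes. The fit was tested on simulated data. Positions and sequences came from GENCODE vM21 (GRCm38), and copies were found with blastn 2.17.0. Depth was 20029817 to 32006229 estimated counts per library.

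Kidneys with the same number within a treatment came from the same mouse, so numbers pair them. The correlation of their deviations from the group means was 0.127, 0.0496 and 0.0307 in coarctation mice 1 to 3 and 0.398 in the sham mice. The sham value is the same for both mice by construction, since deviations from a mean of 2 libraries mirror each other. No correlation between kidneys of different mice is set beside these. duplicateCorrelation gave 0.317.

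Named genes were all rows beginning with mt-, and for each list of nuclear genes those of smallest unadjusted p. A gene that this rule names is not reported here. The members and lists were chosen with earlier results of these data known. The design had foreseen mitochondrial ribosomal RNAs as well, which were not analysed here.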

Additional observations from a re-analysis of the deposited data

Results flagged for a closer look

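mt-Nd1 was higher in the right than in the left kidney of every coarctation mouse and lower in that of every sham mouse on the log2(TPM + 1) scale. The mean right minus left difference was 0.18 over the 3 coarctation mice and -0.30 over the 2 sham mice, and these means differ by 0.48. limma-trend on that scale gave this difference an adjusted p of 1.00, and over the 25 alternatives of the difference the adjusted p of mt-Nd1 ran from 0.906 to 1. On log2 CPM the right kidney of coarctation mouse 3 was lower than the left (-0.22, against 0.01 on log2(TPM + 1)). The directions thus did not separate there. The deposited counts were derived from TPM, so these scales differ mainly in how libraries are scaled. The edgeR fit of the difference between side changes gave mt-Nd1 a log2 value of 0.39 (SE 0.60), which did not pass the test. On TPM, 4.11% of all genes showed the same separation.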

How the results depend on the processing

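None of the 13 members passed the test in any of the 26 alternatives run for each comparison, or the 25 run for the difference between side changes. Without a filter on low counts, 112, 19, 63, 67 and 70 genes passed in the comparisons of sides in coarctation, of sides in sham, of their difference, of left and of right kidneys, and the smallest adjusted p of a member was 0.150 in left and 0.161 in right kidneys. With DESeq2 these counts were 76, 28, 34, 39 and 57. limma-trend on log2(TPM + 1) called 2 genes for sham sides and 3 for left kidneys. With mouse as a block (the pairing of kidneys), edgeR was used for the sides and for their difference. Coarctation was compared with sham on each side in limma, with the correlation of duplicateCorrelation between the kidneys of a mouse. In these fits 5 genes passed between coarctation sides and 0 in the other comparisons. The medians of the 13 were 0.02, -0.34, 0.32, 0.38 and 0.69. Among fits that left out a library or a mouse, the genes called ran from 0 to 4 for coarctation sides, 0 to 1 for the difference and 0 to 3 for right kidneys. The medians of the 13 ran from -0.24 to 0.46 for coarctation sides, -0.82 to 0.11 for sham sides and -0.16 to 0.83 for the difference. They ran from 0.06 to 0.88 for left and 0.33 to 1.18 for right kidneys. With nuclear copies added the sham median was -0.29. As shares of estimated counts, the summed level averaged 8.43%, 9.13%, 8.56% and 6.58% in coarctation left, coarctation right, sham left and sham right. With copies added to TPM it averaged 10.4%, 11.0%, 10.8% and 8.28% in these groups. The cause of these shifts was not tested. The alternative with the ribosomal RNAs was not run. With 2 sham mice, a leave-out fit leaves 1 library in a group, which is assumed to vary like the others.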
